A study of Mus musculus with 30 samples.

Results

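Among 14 mice that had received carbon black in the lung, the livers of 4 differed from those of the other 10 in acute phase, drug metabolism, cholesterol synthesis and interferon response genes. The 14 arrays are part of a series of 30, and the remaining 16 hold control mice, which were left out of the tests and appear below only as a background range. All 14 were female C57BL/6 mice, acquired at 5 to 6 weeks of age, and each had been given 0.162 mg of Printex 90, a powder of carbon black nanoparticles, into the trachea. The particles were sonicated into 40 µl of saline (0.9% NaCl) with 10% lavage fluid from the lungs of the same strain, and 150 µl of air followed. The control treatment is described only as none, and the time between dosing and tissue collection is not given in the sources used here. Animals were divided by their sample numbers into run 1 (numbers 176, 177, 179 and 180), run 2 (193 to 197, 5 animals) and run 3 (212 to 216, 5 animals). Runs 2 and 3 together are called the later runs. What such a run stands for is not given in the sources used here, and all exposed mice carry the same treatment label. The overall design names groups of 6 mice, while 14 exposed and 16 control arrays are present.

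The liver answers inflammatory signals such as interleukin 6 by secreting acute phase proteins, among them serum amyloids and the iron-sequestering lipocalin 2. It clears foreign compounds with cytochrome P450 enzymes that are switched on through the nuclear receptors CAR and PXR. Cholesterol is made from acetyl-CoA along the mevalonate and lanosterol pathway under the control of the transcription factor SREBP2. Interferons act through their receptors on a group of antiviral genes that hepatocytes, endothelium and Kupffer cells share, and the unfolded protein response raises chaperones and degradation factors of the endoplasmic reticulum.

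Each liver RNA was labelled with Cy5 and set against a universal mouse reference RNA in Cy3, 1 array per mouse. Values are log2 ratios of Cy5 over Cy3 after background correction and loess normalisation, and differences are run 1 minus the later runs with their standard error (SE). Median Cy5 signals were 104 to 119.5 in run 1 and 113.5 to 162.5 in the later runs (two-sided exact permutation test, adjusted p = 0.035 over 5 quality measures). The Cy5 channel exceeded background clearly for 50.01% to 55.64% of probes in run 1 and 52.13% to 69.05% in the later runs (adjusted p = 0.035 by the same exact test). Run 1 arrays occupied 4 slides, each of which also held 1 later exposed array: mouse 193 of run 2 or mouse 212, 213 or 214 of run 3. On these 4 later arrays 52.13% to 58.58% of probes were above background, and on the 6 later arrays of other slides 61.14% to 69.05%. The part of signal strength in the differences below was not tested. All 4 run 1 arrays sat in the third position of their slide, whereas 8 of 10 later arrays sat in the fourth. Array 176 stood apart: the interquartile range of its log ratios was 0.245, against 0.436 to 0.566 on the other 13, and it lay at -47.7 on the first principal component (27.6% of variance), where the other run 1 arrays lay at -15.5 to -15.1. Without background correction that range was 0.402 for array 176, against 0.433 to 0.562. Without mouse 176, 68 of 138 called list members and named genes kept their call, and the other 70 kept their direction at an adjusted p from 0.05 to 0.213. The genes described below that lost their call in this way are named with their group.

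Of 12258 named genes tested, 216 (1.76%) were higher and 630 (5.14%) lower in run 1 (limma with slide as a random block, Benjamini-Hochberg adjusted p under 0.05). Over all 23842 tested probes 416 were higher and 921 lower, together 5.61%, and the median difference of all named genes was -0.06. The balance of directions depended on the scaling. Of the probes that passed, 31.1% were higher with the settings used here, 39.3% without background correction, 51.4% in the deposited value table, 58.0% with the processed Agilent signals and 59.5% after median centring. Leaving out mouse 176 gave 265 higher and 248 lower probes. The lowest count of higher probes, 169, came without mouse 177. Without mice 179, 180, 196 and 216 there were 250, 270, 255 and 249 higher probes, and without mice 177, 179 and 196 there were 575, 595 and 603 lower ones. A fixed slide block left 15 higher and 23 lower probes, and a term for array position 14 and 39. Of 87 genes named by rule that passed, 15 kept their call with the fixed slide block, 14 with the position term and 50 without mouse 176. The call held in each of these 3 fits for 10 genes: Aldh1a1, Cyp2b10, Derl3, Gbp3, Gpd2, Ifi27l2a, Lcn2, Saa3, Tmem218 and Ulk1. In 103 genes (0.84%) the 4 run 1 arrays all lay above the 10 later ones, and in 389 (3.17%) all below.

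**Figure D1:**
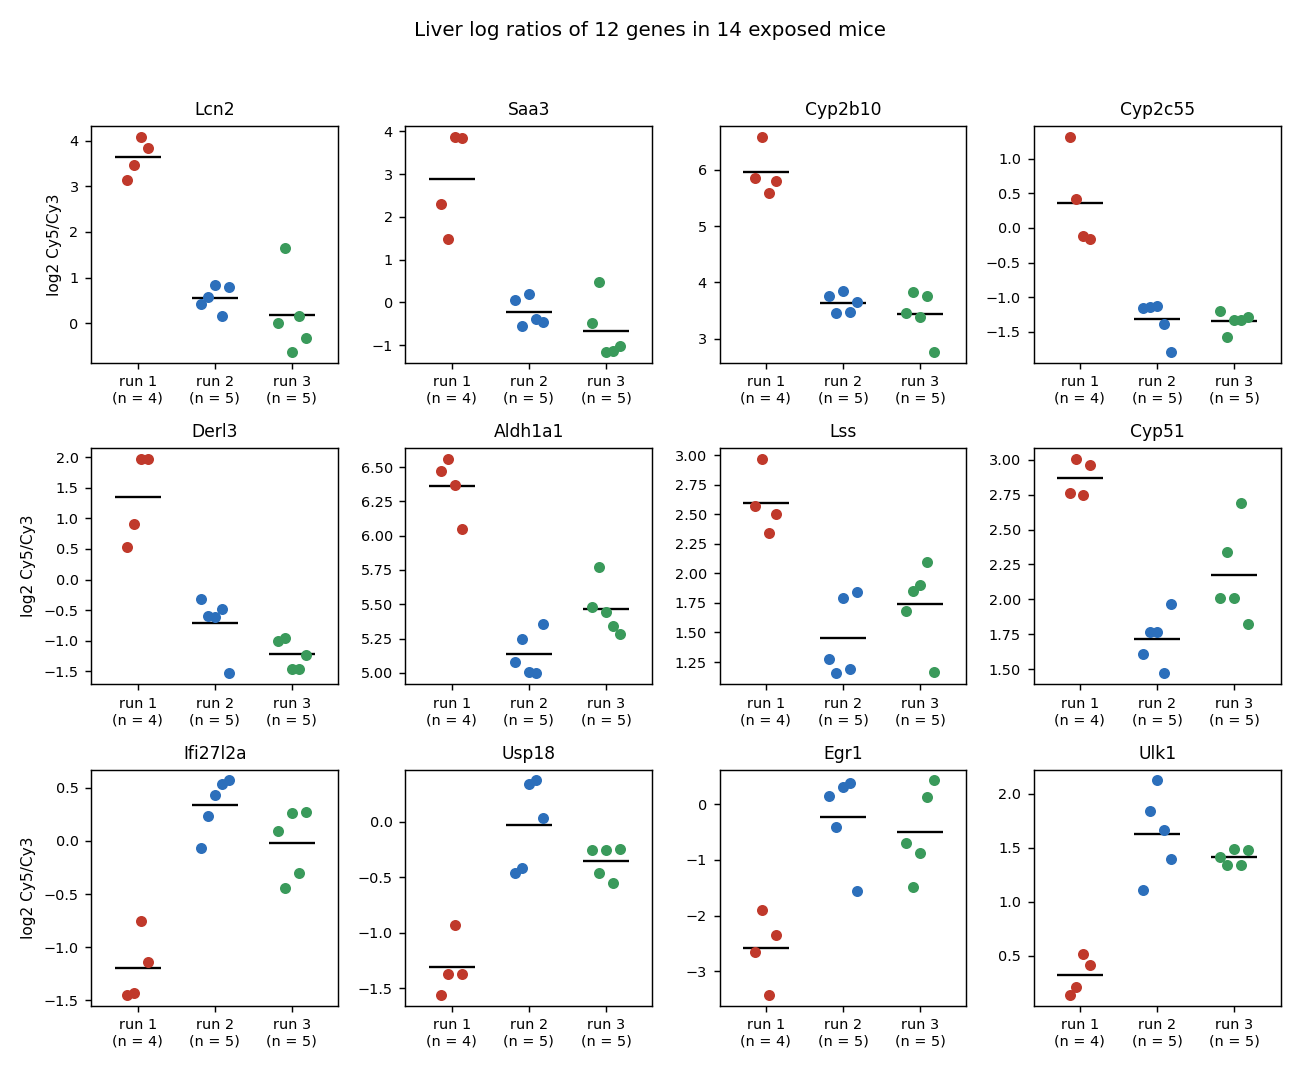
Log2 Cy5/Cy3 of 12 genes in each of the 14 exposed mice, by run (n = 4, 5 and 5). Points are mice and horizontal lines run means, and each panel has its own axis. The 12 genes were picked and all belong to those without overlap (0.84% of named genes above, 3.17% below). Run 1 points therefore lie apart from those of both later runs in all 12 panels.

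Acute phase genes held the largest differences. Saa3 (NM_011315), a serum amyloid made by macrophages and inflamed tissue, measured 2.31, 1.49, 3.87 and 3.85 in mice 176, 177, 179 and 180. In the later runs it ranged from -1.16 to 0.48 with a median of -0.47, so no later mouse reached the lowest of run 1. The difference was 3.28 ± 0.38 (9.74-fold; adjusted p = 0.000349), and the value remained past the threshold with the fixed slide block (adjusted p = 0.0381). Lcn2 (NM_008491), the lipocalin that binds bacterial iron carriers, measured 3.14, 3.47, 4.08 and 3.85 in run 1 and -0.63 to 1.64 (median 0.29) in the later runs. It was 3.27 ± 0.31 higher in run 1 (9.66-fold; adjusted p = 4.94e-05), again without overlap. The 16 controls spanned -0.51 to 3.81 for Lcn2 (median 0.42) and -0.85 to 3.39 for Saa3 (median -0.39), and 1 and 2 of them reached run 1 values. Serpina3n, a protease inhibitor of the acute phase, was higher by 0.58 ± 0.15 (adjusted p = 0.0346).

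The rest of the acute phase list held calls in both directions. Of 36 tested members 4 were higher, 2 lower and 30 did not pass, with a median of 0.22. Among all named genes 1.76% were higher and 5.14% lower. Saa1 gave 4.38 to 4.49 in the 4 run 1 mice and 2.69 to 4.38 in the later ones (difference 0.96 ± 0.23, adjusted p = 0.0242). A further Saa1 probe stood at -0.04 (adjusted p = 0.931), while Saa2, a near-identical gene, was lower by 0.49 on the log2 scale (-0.49 ± 0.12, adjusted p = 0.0309), so the probes of this pair disagree. Without mouse 176 Saa1 stood at 0.96 (adjusted p = 0.0604) and Saa2 at -0.43 (adjusted p = 0.106). The size for Saa1 depended on the processing, with 0.70 under the position term, 1.70 with the processed Agilent signals, 2.07 after median centring and 3.90 with Cy5 alone. Ttr, the thyroid hormone carrier that falls in an acute phase response, measured 3.41, 5.19, 3.39 and 5.04 in run 1 and 5.30 to 6.30 in the later runs. It was lower in run 1 at -1.46 ± 0.28 (adjusted p = 0.00883), but the processed Agilent signals put it higher, at 0.81 (adjusted p = 0.0408). Hp at 0.28, Orm1 at 0.06, Fgb at 0.20, Apcs at 0.34 and Hamp at 0.01, all classical secreted acute phase proteins or hepcidin, did not pass. None of 37 tested complement and coagulation genes passed either (median 0.08).

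Lcn2 is also a granule gene of neutrophils, so the markers of that cell were set beside it. Of 15 neutrophil markers 14 are on the array and 6 could be tested. Lcn2 and Chil3, a chitinase-like protein, were higher (Chil3 by 0.996 ± 0.188, adjusted p = 0.00839), and S100a8 at 0.10, S100a9 at 0.11, Mmp9 at 0.11 and Mpo at 0.06 did not pass. Elane exceeded background clearly on 0 of the 14 arrays, Camp, Ngp and Mmp8 on 1 each, Ltf and Cxcr2 on 4 each, and Csf3r and Retnlg on 5 each. The mean log ratio over the 5 tested markers other than Lcn2, a choice made after seeing the data, was 0.17 to 0.42 in run 1 and -0.25 to 0.18 in the later runs, so that the ranges overlapped. Among cytokine signalling genes 1 of 27 was higher and 1 lower: Cxcl1, a chemokine for neutrophils, at 0.77 ± 0.21 (adjusted p = 0.0418), and Cxcl13, a chemokine for B cells, at an adjusted p of 0.00528. Over all named genes the shares were 1.76% higher and 5.14% lower. Cxcl13 was clearly above background on only 1 of 4 run 1 arrays and 9 of 10 later ones, and its difference, -0.61 here, ranged from -2.85 to -0.45 over the alternatives, so its size is not settled. It met the filter of 7 arrays through the later runs, which favours a lower call, so the Cxcl13 call carries no weight. In bulk liver RNA, a change in the number of cells of a type and a change in RNA per cell cannot be told apart.

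Genes of drug metabolism were led by targets of the receptor CAR. Cyp2b10 (NM_009999), the standard CAR target in mouse liver, measured 5.86, 6.58, 5.597 and 5.79 in run 1 and 2.77 to 3.85 (median 3.56) in the later runs. Its difference was 2.40 ± 0.18 (5.28-fold; adjusted p = 5.72e-06), the smallest adjusted p among the genes described here. With the processed Agilent signals it was smaller and did not pass (1.15, adjusted p = 0.127, and 1.02, adjusted p = 0.308, also without mouse 176). Within the 4 shared slides it was 2.04, 2.02, 2.21 and 3.13 higher than in the later mouse. Cyp2c55, another P450 under CAR and PXR, measured 1.31, 0.42, -0.12 and -0.16 in run 1 and -1.79 to -1.13 in the later runs (1.69 ± 0.20, adjusted p = 0.000364). Neither gene overlapped between run 1 and the later runs. In the 16 controls Cyp2b10 spanned 2.09 to 5.79 and Cyp2c55 -1.66 to 1.43, where 1 and 6 controls reached run 1 values.

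Other members of this list followed at smaller size. Aldh1a1 (NM_013467), which oxidises retinaldehyde, was higher by 1.04 ± 0.12 (adjusted p = 0.000337), with 6.47, 6.56, 6.37 and 6.05 in run 1 and 5.00 to 5.77 in the later runs. No control reached run 1 (4.83 to 5.90), and the call held under all 35 alternatives. Abcc3, an exporter of conjugates, was higher by 0.59 ± 0.09 (adjusted p = 0.00322), although a further probe gave 0.29 (adjusted p = 0.279), and Cyp3a13 by 0.65 ± 0.17 (adjusted p = 0.0347). Sult1e1, the estrogen sulfotransferase, measured 4.40, 6.38, 3.40 and 3.37 in run 1 and 0.63 to 4.03 in the later runs, so that the groups overlapped (2.05 ± 0.58, adjusted p = 0.0487, and 0.111 without mouse 176). Gsta4, a glutathione transferase for lipid aldehydes, was lower at -0.64 ± 0.09 (adjusted p = 0.00254). In all, 6 of 66 tested members were higher, 1 lower and 59 did not pass, with a median of 0.13 (-0.01 with the position term). The shares over all named genes were 1.76% higher and 5.14% lower. The counts of higher members were 9 without mouse 176, 14 in the deposited value table, 2 with the fixed slide block and 3 with the position term. Cyp3a11, the main PXR target, stood at 0.30, Por, the reductase of all these P450s, at 0.57 (adjusted p = 0.0827), and the receptors Nr1i3 (CAR) and Nr1i2 (PXR) at 0.10 and -0.10.

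Of 20 tested genes of cholesterol synthesis 9 were higher in run 1, 0 lower and 11 did not pass, with a median of 0.55 against -0.06 for all named genes. Of all named genes 1.76% were higher and 5.14% lower. At the entry of the pathway Hmgcs1 at 0.54 (adjusted p = 0.14) did not pass. Mvk, mevalonate kinase, was higher by 0.78 ± 0.14 (adjusted p = 0.00767), Pmvk, the next kinase, by 0.57 ± 0.12 (adjusted p = 0.0142) and Fdps, which makes farnesyl diphosphate, by 0.57 ± 0.12 (adjusted p = 0.0142). Sqle, squalene epoxidase, was higher by 0.67 ± 0.16 (adjusted p = 0.0235). Lss (NM_146006), which closes the sterol ring, measured 2.57, 2.97, 2.34 and 2.50 in run 1 and 1.15 to 2.10 in the later runs. Its difference of 0.99 ± 0.17 (1.98-fold; adjusted p = 0.00527) came without overlap, and a further Lss probe gave 0.98 (adjusted p = 0.00297). Cyp51, the lanosterol demethylase, measured 2.76, 3.01, 2.75 and 2.96 in run 1 and 1.47 to 2.69 in the later runs (0.92 ± 0.16, adjusted p = 0.0058), and 2 further probes gave 0.77 and 0.89. Nsdhl and Dhcr7, later steps towards cholesterol, were higher by 0.49 and 0.39 (adjusted p = 0.0466 and 0.0333). Msmo1 at 0.79 (adjusted p = 0.0501), Mvd at 0.83 (adjusted p = 0.0645) and Fdft1 at 0.55 (adjusted p = 0.053) lay near the threshold, while Ebp, Sc5d, Tm7sf2, Acat2 and Ggps1 lay between -0.09 and 0.03.

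The regulators of this pathway did not move as 1 group. Srebf2, which encodes SREBP2, was higher by 0.50 ± 0.10 (adjusted p = 0.014), but a further probe gave 0.06 (adjusted p = 0.726). Scap, the escort of SREBP, was lower at -0.57 ± 0.09 (adjusted p = 0.00297) without overlap (0.94 to 1.33 in run 1 and 1.62 to 2.02 later). Tmem97, a sterol-responsive membrane protein, was higher by 0.33 ± 0.08 (adjusted p = 0.0308), whereas Insig1, which holds SREBP in the endoplasmic reticulum, at 0.13 did not pass. Without mouse 176 Sqle at 0.68 and Tmem97 at 0.35 no longer passed (adjusted p = 0.0541 and 0.0566). The mean log ratio over the 20 synthesis genes was 2.61 to 2.96 in run 1 and 1.95 to 2.65 in the later runs. Against run 2 alone 13 members were higher and against run 3 alone 4. With the fixed slide block or the position term 0 passed, with medians of 0.52 in both, and without mouse 177 or 180 there were 3 and 5. The median of the list stayed above 0 under all 36 alternatives (0.39 to 1).

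**Figure D2:**
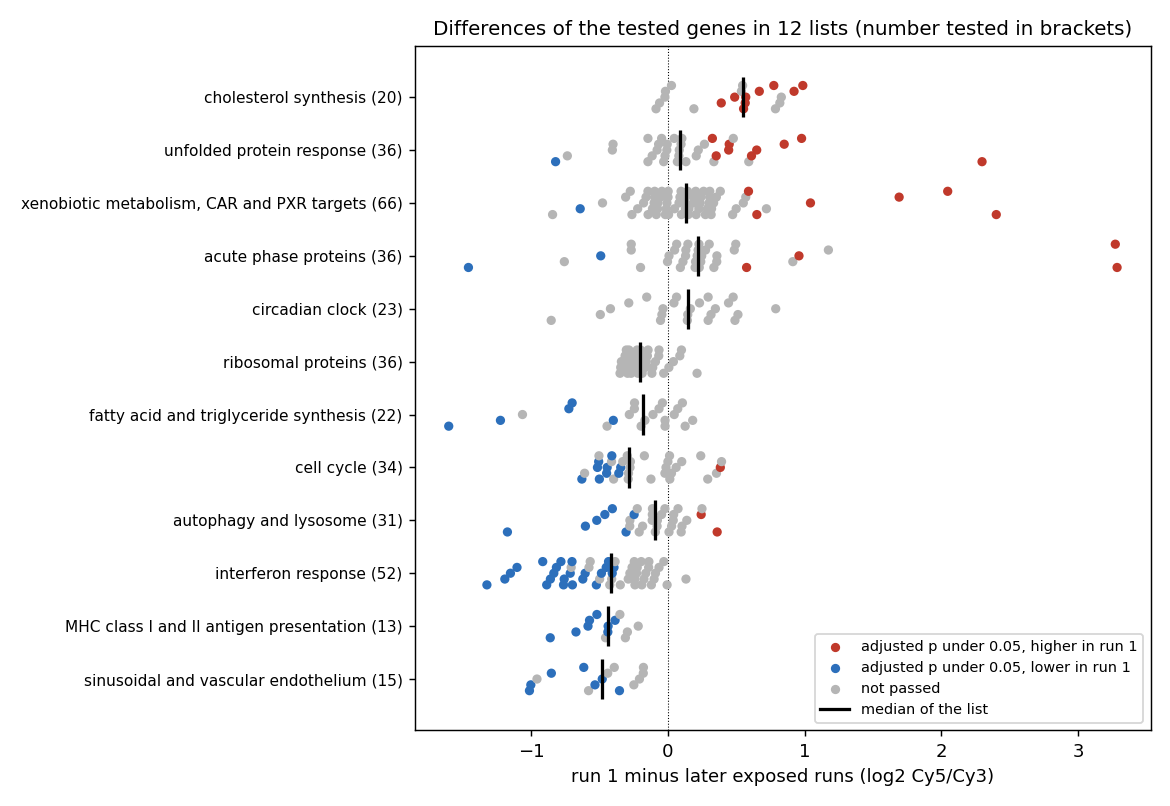
Difference of run 1 minus the later runs (log2 Cy5/Cy3) for every tested gene of 12 lists, with the number tested in brackets and the list median as a vertical bar. Red points passed upward and blue points downward. Of 20 cholesterol synthesis genes 16 lie right of 0, against 1 of 52 interferon, 0 of 13 MHC and 0 of 15 endothelial genes.

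Genes of the unfolded protein response rose in a subset, led by Derl3. Derl3 (NM_024440), a derlin that draws misfolded proteins out of the endoplasmic reticulum, measured 0.53, 0.90, 1.98 and 1.97 in run 1 and -1.54 to -0.33 (median -0.98) in the later runs. The difference was 2.30 ± 0.26 (4.91-fold; adjusted p = 0.000337) without overlap, and 3 of 16 controls reached run 1 values. Sdf2l1, a partner of the chaperone BiP, was higher by 0.98 ± 0.19 (adjusted p = 0.0107), Creld2 by 0.85 ± 0.23 (adjusted p = 0.0409), Manf, a secreted stress factor, by 0.65 ± 0.17 (adjusted p = 0.0348) and the disulfide isomerase Pdia4 by 0.61 ± 0.13 (adjusted p = 0.0167). Sel1l, Edem2, Dnajc3 and P4hb were higher by 0.45, 0.33, 0.45 and 0.35 (adjusted p from 0.0244 to 0.049). Run 1 values were reached by 9 of 16 controls for Sdf2l1, 12 for Pdia4 and 10 for Sel1l. Herpud1, also of the degradation machinery, was lower at -0.82 ± 0.20 (adjusted p = 0.0258). Hspa5, which encodes BiP, at 0.48 (adjusted p = 0.0665) and Hyou1 at 0.59 (adjusted p = 0.097) did not pass, and neither did Xbp1 at 0.10, Atf4 at 0.08 or Ddit3 at -0.15, which stand for the signalling arms.

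In all 9 of 36 tested members were higher, 1 lower and 26 did not pass, and the list median was 0.09. Beside this, 1.76% of all named genes were higher and 5.14% lower. The mean log ratio over the list was 0.46, 0.46 and 0.42 in mice 177, 179 and 180 but 0.11 in mouse 176, and 0.04 to 0.26 in the later runs. The count of higher members was 10 without mouse 176, where Edem2 no longer passed (adjusted p = 0.076), and fell to 3, 2 and 3 without mice 177, 179 and 180, and to 5, 4 and 4 without mice 214, 196 and 216. With the fixed slide block and with the position term 1 member passed, Derl3 (adjusted p = 0.0176 and 0.031).

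The interferon response was lower in run 1, with 23 of 52 tested members lower, 0 higher and 29 not passing (median -0.42). In 16 of the 52 all 4 run 1 arrays lay below the 10 later ones. Among all named genes 5.14% were lower, and 3.17% lay below without overlap. Of 60 list members 42 have a promoter in the RefSeq table used here (GRCm38.p6), and the core of the interferon stimulated response element, GAAANNGAA on either strand, is found in 26 of their 47 promoters (55.3%), against 8.56% of all 32851 promoters of the same 300 bases. The list was made of interferon genes, so this share describes the list and not the difference between runs. By gene, 25 of the 42 hold the core. Of the 23 lower genes 15 have a promoter in the table, and 8 of these hold the core: Bst2, Cxcl9, Gbp3, Ifih1, Ifit3, Isg15, Oas1a and Rsad2. The lower genes thus did not carry it more often than the list. The promoters of Gbp3, Ifit3 and Isg15 are shown because these genes were lower together and carry the motif, each 5′ to 3′ on the gene's strand with the core in capitals, where overlapping matches join into 1 run. They lie at chr3:142559794-142560093 (plus strand, 2 matches), chr19:34583279-34583578 (plus strand, 3 matches) and chr4:156200769-156201068 (minus strand, 3 matches).
Gbp3: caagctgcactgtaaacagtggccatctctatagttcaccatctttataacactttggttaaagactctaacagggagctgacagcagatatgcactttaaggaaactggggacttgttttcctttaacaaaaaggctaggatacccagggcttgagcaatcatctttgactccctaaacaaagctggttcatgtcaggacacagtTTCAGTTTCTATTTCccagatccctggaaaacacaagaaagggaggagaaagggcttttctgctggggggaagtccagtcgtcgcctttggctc
Ifit3: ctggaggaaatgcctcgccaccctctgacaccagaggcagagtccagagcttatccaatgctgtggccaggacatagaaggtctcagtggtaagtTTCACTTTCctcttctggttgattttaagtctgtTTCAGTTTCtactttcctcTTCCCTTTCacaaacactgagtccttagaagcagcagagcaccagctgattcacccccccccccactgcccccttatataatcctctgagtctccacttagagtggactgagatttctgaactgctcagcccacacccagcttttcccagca
Isg15: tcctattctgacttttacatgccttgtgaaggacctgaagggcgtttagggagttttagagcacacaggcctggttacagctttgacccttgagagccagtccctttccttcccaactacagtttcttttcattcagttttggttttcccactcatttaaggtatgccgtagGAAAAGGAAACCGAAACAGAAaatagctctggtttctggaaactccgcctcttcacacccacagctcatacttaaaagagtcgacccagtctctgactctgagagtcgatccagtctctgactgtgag
A match is a description of these letters and not a measured binding site. For the other lists, the sterol element core TCACNCCAC is found in 1 of 19 promoters of the cholesterol list (5.26%) against 1.24% of all, and in none of the 6 promoters of higher members in the table.

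Signal transducers, sensors and effectors were all among the lower interferon genes. Ifi27l2a (NM_029803), an interferon-induced mitochondrial protein, measured -1.45, -1.43, -0.75 and -1.14 in run 1 and -0.44 to 0.57 (median 0.25) in the later runs. It was lower in run 1 by 2.50-fold (-1.32 ± 0.17, adjusted p = 0.000874), the groups did not overlap, none of the 16 controls (-0.69 to 0.77) reached the highest run 1 value, and the call held under all 35 alternatives. Usp18, the protease that takes the modifier ISG15 off its targets, measured -1.56, -1.37, -0.93 and -1.37 in run 1 and -0.55 to 0.38 in the later runs (-1.10 ± 0.16, adjusted p = 0.00272). Isg15 itself was lower at -0.81 ± 0.17 (adjusted p = 0.0157). Gbp3, a guanylate-binding protein, measured 0.41, 0.71, 1.21 and 0.67 in run 1 and 1.40 to 2.70 in the later runs (-1.15 ± 0.19, adjusted p = 0.00368), and this call too held under all 35 alternatives. Irf9, which transmits the interferon signal, was lower at -0.41 ± 0.10 (adjusted p = 0.029), as was the factor Irf7 at -0.52 (adjusted p = 0.0338). The RNA sensors Ifih1 and Dhx58 stood at -0.78 and -0.71 (adjusted p = 0.0119 and 0.0297).

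Antiviral effectors passed in the same direction, Bst2, the tetherin of budding virus, at -0.76 (adjusted p = 0.00303), Ifit3 at -0.83 (adjusted p = 0.0101), Rsad2 (viperin) at -0.91 (adjusted p = 0.0277) and the oligoadenylate synthetases Oas1a and Oasl2 at -0.62 and -0.70. Cxcl9, a T cell chemokine induced by interferon gamma, was lower at -1.19 ± 0.30 (adjusted p = 0.0328), but stood at -0.75 (adjusted p = 0.128) without mouse 176 while the processed Agilent signals gave 0.13 (adjusted p = 0.857). Cxcl10 at -0.50, Irf1 at -0.12, Stat2 at -0.06, Tap1 at -0.10 and Oas3 at 0.13 did not pass. The list score was 0.37, 0.63, 0.88 and 0.70 in mice 176, 177, 179 and 180 and 0.88 to 1.60 in the later runs, and mouse 179 reached the lowest later mouse. Against run 2 alone 25 members were lower and against run 3 alone 7. Without mouse 176 Isg15, Irf7, Irf9, Dhx58, Rsad2 and Oas1a no longer passed (adjusted p from 0.05 for Isg15 to 0.125 for Dhx58). The count was 11 without mouse 176, 11 without mouse 177, 14 without mouse 180, 4 after median centring, 3 with the fixed slide block and 4 with the position term, with a list median from -0.64 to -0.26 over 36 alternatives.

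**Figure D3:**
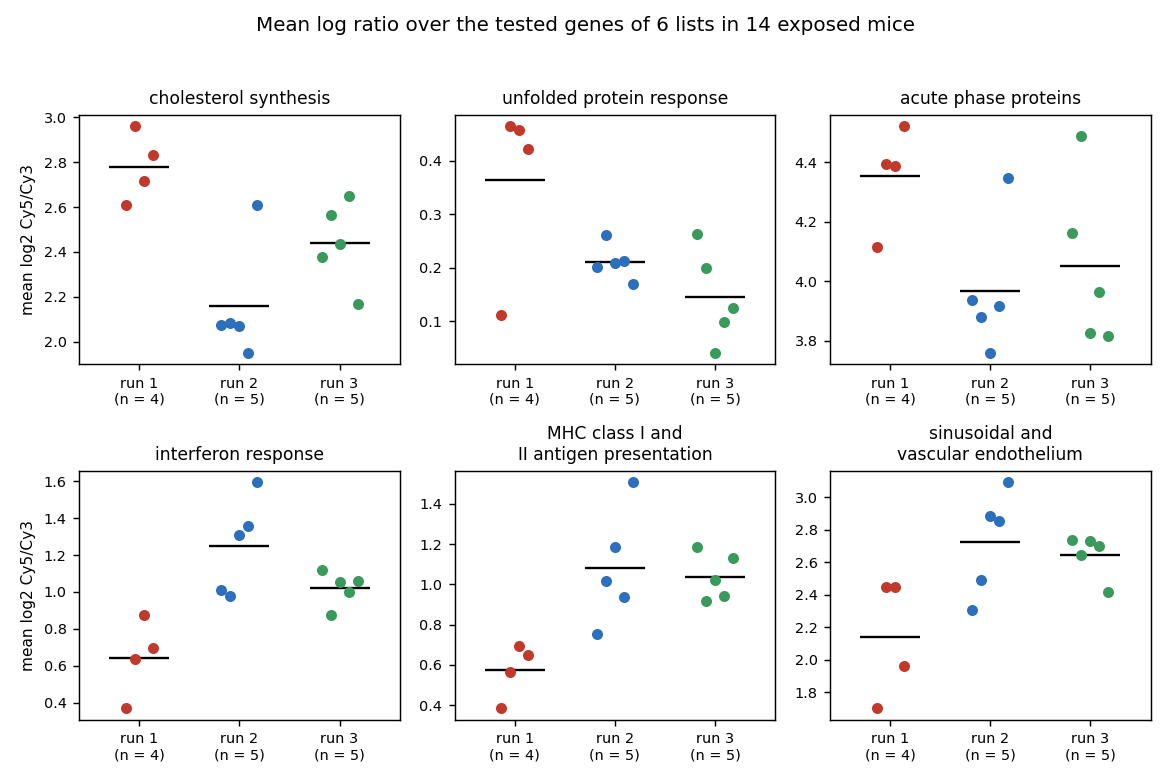
Mean log2 Cy5/Cy3 over the tested genes of 6 lists in each exposed mouse, by run (n = 4, 5 and 5), with run means as lines and each panel on its own axis. In run 1 the cholesterol scores are 2.61 to 2.96 and the MHC scores 0.38 to 0.69, below all later mice for MHC, while mouse 176 has the lowest run 1 score in each of the 6 lists.

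Antigen presentation genes, many of them also induced by interferon, were lower too. Of 13 tested members 8 were lower and 5 did not pass (median -0.44), beside 5.14% lower among all named genes. Cd74, the invariant chain of MHC class II, stood at -0.67 ± 0.13 (adjusted p = 0.0112), H2-Aa at -0.86 ± 0.18 (adjusted p = 0.0141) with a further probe at -1.13 (adjusted p = 0.00368), and H2-Ab1 at -0.57 (adjusted p = 0.0413). Of class I, B2m, the shared light chain, stood at -0.44 ± 0.08 (adjusted p = 0.00852), with a further probe at -0.26 (adjusted p = 0.0596), and H2-D1, H2-Q7 and H2-T23 at -0.39, -0.44 and -0.52. The list score of 0.38 to 0.69 in run 1 did not overlap with 0.75 to 1.51 in the later runs. Without mouse 176 and mouse 177 the count was 2 and 4, where B2m and Cd74 were the 2 left, and it was 1 with the processed signals, 1 after median centring and 0 with the fixed slide block.

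Markers of the liver's other cells gave the following background to these lists, beside 5.14% lower among all named genes. Of 15 endothelial markers 7 were lower, among them the scavenger receptors Mrc1 at -1.001 ± 0.249 (adjusted p = 0.0297) and Stab1 at -0.53 ± 0.11 (adjusted p = 0.0156), the junction protein Cdh5 at -1.01 ± 0.28 (adjusted p = 0.0473) and Eng at -0.48 ± 0.10 (adjusted p = 0.0117). A further Stab1 probe gave -0.02 (adjusted p = 0.905). Controls in or beyond the run 1 range numbered 10 for Mrc1, 9 for Stab1, 8 for Eng and 7 for Oit3, which was also lower. Control means for Mrc1 and Stab1 were 3.45 and 3.01. They lay between the means of run 1 (2.75 and 2.69) and of the later runs (3.8 and 3.225). The endothelial score was 1.70 to 2.45 in run 1 and 2.31 to 3.095 in the later runs, with a list median of -0.48. The count of lower endothelial markers was 1 without mouse 176, 2 without mouse 180 and 4 without any of mice 195, 196, 197, 212 and 214. Of 13 Kupffer cell and macrophage markers Lyz2, lysozyme, was lower at -0.62 ± 0.13 (adjusted p = 0.0132; a further probe at -0.27 did not pass), and the Kupffer cell genes Clec4f at -0.17, Timd4 at -0.60, Vsig4 at -0.29 and Marco at -0.10 did not pass. Of 14 lymphocyte markers Gzmb, a protease of cytotoxic cells, was lower at -0.44 ± 0.10 (adjusted p = 0.0187). Of 19 stellate cell and matrix markers Col4a1 at -0.36 ± 0.10 and Sparc at -0.53 ± 0.15 were lower (adjusted p = 0.036 and 0.0496). Without mouse 176 Mrc1, Stab1, Cdh5, Gzmb, Col4a1 and Sparc no longer passed (adjusted p from 0.0563 for Gzmb to 0.213 for Sparc). The part of these markers in the interferon and MHC differences was not tested.

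Hepatocyte identity genes were near 0 except Ttr: of 11 tested, Alb at 0.23, Apoa1 at 0.20 and Hnf4a at -0.35 did not pass, and the mean over the list was 5.45 to 5.73 in run 1 and 4.91 to 6.11 in the later runs, with liver markers strong in both. Of 6 tested lung markers 0 passed, and the surfactant genes Sftpc and Sftpb exceeded background clearly on 3 and 1 of 14 arrays. Of 5 tested pancreatic acinar markers Cela2a passed at an adjusted p of 0.0311, with 0 of 4 run 1 arrays and 7 of 10 later ones clearly above background. It met the filter of 7 arrays only through the later runs, which favours a lower call, so the call carries no weight. Without mouse 176 Cela2a did not pass (adjusted p = 0.104). The mean Cela2a signal over the later arrays lay 1.18-fold above the lowest measurable signal of the run 1 arrays. That mean includes later arrays without clear signal, so it sets no minimum size for the difference. Of 5 erythroid markers 0 passed.

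Fatty acid and triglyceride synthesis had 0 of 22 tested genes higher and 5 lower, with a median of -0.18 that turned above 0 under median centring and the processed signals (-0.27 to 0.09 over 36 alternatives). Scd1 (NM_009127), the stearoyl-CoA desaturase, measured 3.53, 2.56, 3.74 and 3.67 in run 1 and 3.92 to 5.21 in the later runs (-1.22 ± 0.22, adjusted p = 0.00587), below every control (3.84 to 5.39). Lpin1, a phosphatidate phosphatase that is also a coregulator of fasting genes, stood at -1.60 ± 0.34 (adjusted p = 0.0154) with 2 further probes at -1.46 and -1.50, but run 1 (2.39 to 3.28) overlapped with the later runs (2.82 to 5.17). For Lpin1, 14 controls lay in or beyond the run 1 range. Their median over all controls was 2.62, against a mean of 2.71 in run 1 and 4.28 in the later runs. Elovl5, Fads2 and Fasn, which elongate, desaturate and build fatty acids, stood at -0.72, -0.40 and -0.70 (adjusted p = 0.00655, 0.0157 and 0.0496), whereas Acaca at -0.11, Acly at -0.02 and Srebf1 at -0.44 did not pass. Controls in or beyond the run 1 range numbered 1 for Elovl5 and 3 for Fads2. Of 37 PPAR alpha genes 3 were lower: Acot1 at -0.95, Fabp4 at -0.75 and Angptl4 at -1.06 (adjusted p = 0.0454, 0.0167 and 0.0473), and 34, Cpt1a at -0.20 among them, did not pass. This lies near the share of lower genes among all named genes, 5.14%. Without mouse 176 Fads2, Fasn, Acot1 and Fabp4 no longer passed (adjusted p from 0.0528 for Fabp4 to 0.172 for Fasn). Angptl4 had no value on array 179 and was tested on the remaining 13.

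Immediate early genes, which answer stimuli within minutes, included the largest difference downward. Egr1 (NM_007913), a zinc finger factor, measured -2.65, -1.89, -3.43 and -2.34 in run 1 and -1.55 to 0.43 (median -0.14) in the later runs. It was lower in run 1 by 4.46-fold (-2.16 ± 0.36, adjusted p = 0.00493), while the controls spanned -3.07 to -0.002, with 5 of 16 in the range of run 1. With the fixed slide block it stood at -1.85 (adjusted p = 0.117). Jund, Ier2 and Zfp36 were also lower at -0.60, -0.76 and -0.41 (adjusted p = 0.0054, 0.026 and 0.0442), further probes of Ier2 at -0.05 and Zfp36 at -0.46 did not pass, and 18 of 22 members, Fos at 0.17, Jun at -0.78 and Junb at -0.90 among them, did not pass. The 4 lower members of 22 stand beside 5.14% lower among all named genes. Without mouse 176 Ier2 and Zfp36 no longer passed (adjusted p = 0.0881 and 0.09). Klf10, a factor induced by TGF-beta, was lower at -1.54 ± 0.28 (adjusted p = 0.00696), with -2.03, -1.34, -1.84 and -2.002 in run 1 and -1.24 to 0.48 in the later runs. Of 16 controls 6 lay in or below its run 1 range. Of 23 clock genes 0 passed, the smallest p being that of Nampt at 0.48 (adjusted p = 0.0508), and Nr1d1 stood at -0.85 (adjusted p = 0.0608), Dbp at -0.04 and Arntl at 0.30.

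Autophagy and lysosome genes passed in both directions, 7 lower and 2 higher of 31, with a median of -0.09 (up to 0.14 over the alternatives, above 0 under median centring and the processed signals). For each list of this paragraph, the shares over all named genes were 5.14% lower and 1.76% higher. Ulk1 (NM_009469), the kinase that starts autophagy, measured 0.14, 0.21, 0.52 and 0.41 in run 1 and 1.104 to 2.12 in the later runs. It was lower by 2.25-fold (-1.17 ± 0.14, adjusted p = 0.000354), a further probe gave -0.97 (adjusted p = 2.98e-05), and the call held under all 35 alternatives, although 5 of 16 controls reached run 1 values. The lysosomal genes Ctsb at -0.60 ± 0.12 and Hexa at -0.46 ± 0.08 were lower (adjusted p = 0.0112 and 0.00544), and Atg7 and Map1lc3a were higher by 0.24 and 0.36 (adjusted p = 0.0311 and 0.0305). Of 34 cell cycle genes 9 were lower and 1 higher (median -0.28), the lower ones including the replication genes Mcm7 at -0.50, Rrm1 at -0.51 and Mcm6 at -0.63 (adjusted p = 0.0131, 0.00696 and 0.0498). Without mouse 176, 1 of these 34 was lower, Rrm1, and Atg7, Map1lc3a, Retsat and Bco1 no longer passed either (adjusted p from 0.0559 for Bco1 to 0.0893 for Map1lc3a). Of 19 retinoid genes Aldh1a1 and Retsat (0.55 ± 0.13, adjusted p = 0.0277) were higher, and Ttr and Bco1, which cleaves beta-carotene (-0.76 ± 0.17, adjusted p = 0.0178), were lower. Ribosomal protein genes and proteasome genes gave 0 calls among 36 and 26, with medians of -0.20 and -0.11 that ranged up to 0.29 and 0.26 under other scalings.

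The remaining lists held few calls, beside 1.76% higher and 5.14% lower among all named genes. Nqo1, a quinone reductase and the 1 call among 25 NRF2 and 6 aryl hydrocarbon receptor genes, was higher by 0.37 ± 0.10 (adjusted p = 0.0494), and Hspb1, a small heat shock protein, by 0.48 ± 0.12 (adjusted p = 0.0338), 1 of 19 in its list. Of 22 lipoprotein and sterol export genes Apoa4, an apolipoprotein of triglyceride-rich particles, was higher by 0.82 ± 0.20 and Abcg8, which exports sterols into bile, lower at -0.92 ± 0.22 (adjusted p = 0.0301 and 0.0264), although a further Abcg8 probe at -0.31 did not pass. Pfkfb3, a regulator of glycolysis, stood at -0.89 ± 0.22 (adjusted p = 0.029), 1 of 28 genes of carbohydrate and urea metabolism. Of 16 pericentral genes Oat and Nkd1, which follow Wnt signalling around the central vein, were lower at -0.67 and -0.46 (adjusted p = 0.0328 and 0.0301), and 0 of 12 periportal genes passed. The zinc importer Slc39a4 stood at -0.38 (adjusted p = 0.0414), the second call beside Lcn2 among 21 metal and iron genes. Ercc1, Apex1 and Trp53inp1, of 28 genes of p53 and DNA repair, were lower at -0.38, -0.30 and -0.49 (adjusted p = 0.024, 0.0298 and 0.0398). Uqcrc2, Uqcrb and Cyc1, subunits of respiratory complex III, were the 3 lower genes of 38 in oxidative phosphorylation at -0.31, -0.32 and -0.34, but stood at 0.086, 0.035 and 0.042 after median centring. Abcc3 was the 1 call of 20 bile acid genes, Sult1e1 of 32 sex-biased genes, Lpin1 and Angptl4 of 26 fasting genes and Fabp4 of 6 adipocyte, muscle and mesothelium markers, while 0 of 11 bile duct markers passed. Of the genes in this paragraph Apoa4, Abcc3, Lpin1 and Angptl4, besides Lcn2, kept their call without mouse 176, and the others stood at an adjusted p from 0.0528 for Fabp4 to 0.162 for Nqo1. Controls in or beyond the run 1 range numbered 16 of 16 for Abcg8, 14 each for Cyc1 and Lpin1 and 13 for Uqcrb. There were 12 for Pfkfb3, 11 for Trp53inp1, 10 for Angptl4, 9 each for Nqo1 and Apex1 and 8 for Nkd1. Hspb1 had 7, Oat 6, Ercc1 4 and Fabp4 3. They numbered 2 each for Apoa4, Abcc3, Slc39a4 and Uqcrc2, and 0 for Sult1e1.

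Outside the lists, the widest gaps between run 1 and the later runs included Tmem218 and Gpd2. Tmem218, a membrane protein of the primary cilium, measured -0.81, -1.10, -0.85 and -0.90 in run 1 and -0.41 to 0.11 in the later runs (-0.80 ± 0.09, adjusted p = 0.00016), and none of the controls (-0.57 to 0.47) reached the highest run 1 value. Gpd2, the mitochondrial glycerol-3-phosphate dehydrogenase, measured -0.54, -0.34, -0.53 and -0.53 in run 1 and 0.03 to 0.48 in the later runs (-0.73 ± 0.08, adjusted p = 0.00016). Ly6a, an interferon-responsive surface protein, stood at -0.85 ± 0.14 (adjusted p = 0.00528), with run 1 at -2.09 to -1.99 below the later runs at -1.58 to -0.59. Slc41a2, a magnesium transporter, and Smpd3, a neutral sphingomyelinase, were higher by 1.41 ± 0.20 and 1.301 ± 0.216 (adjusted p = 0.00187 and 0.0048), and further Smpd3 probes gave 0.89 and 0.42. Rgs16, a regulator of G protein signalling, was lower at -1.81 ± 0.46 (adjusted p = 0.0319), but 3 of its run 1 values (3.16 to 3.74) lay beside or within the later range (3.48 to 5.20) and the fourth, in mouse 179, was 0.33. Of 16 controls 10 lay in or below the run 1 range of Rgs16.

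On the 4 slides that hold a run 1 and a later array, the differences could be taken between neighbours. Lcn2 was higher in the run 1 mouse by 3.42, 1.504, 4.71 and 3.48, Derl3 by 2.29, 1.48, 3.45 and 1.91, and Cyp51 by 1.35, 0.42, 0.74 and 0.996. Ifi27l2a lay at -1.07, -1.01, -1.02 and -1.53 and Usp18 at -0.92, -1.10, -0.68 and -1.12 in the same pairs. All 14 genes plotted kept their direction in 4 of 4 pairs, but for these genes run 1 and the later runs do not overlap anywhere. The pairs therefore had to point the same way and add no support. In each pair the run 1 array sat in the third position and the later array in the fourth.

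**Figure D4:**
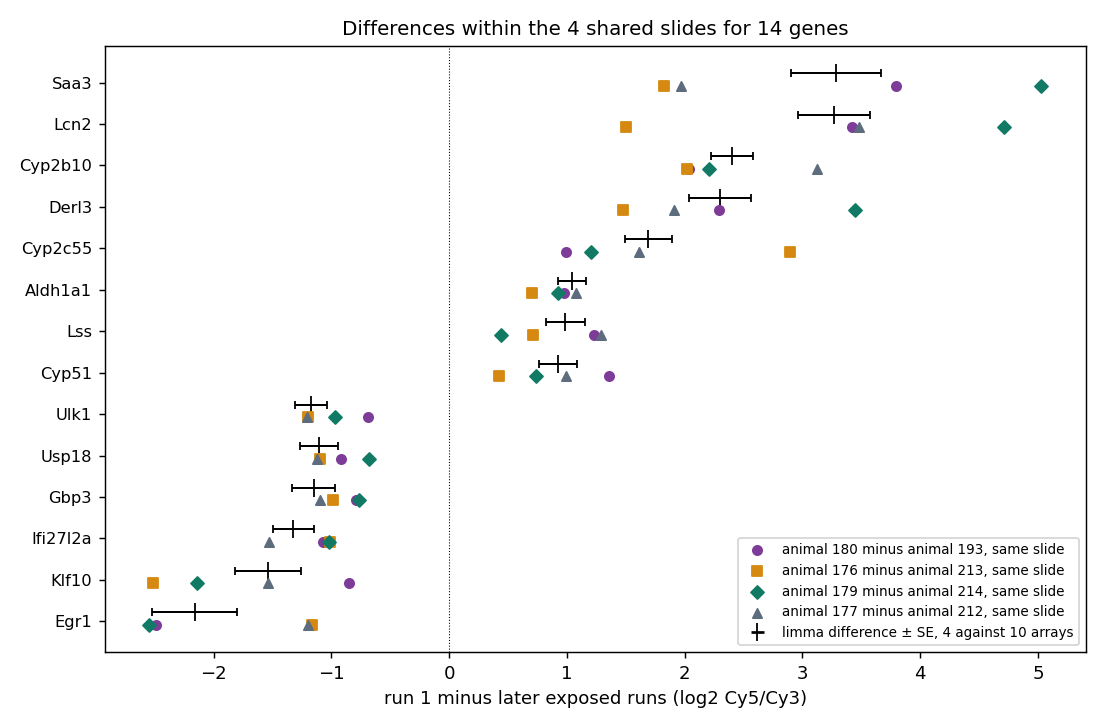
Difference of run 1 minus later mice (log2 Cy5/Cy3) for 14 genes, as the limma estimate over 4 against 10 arrays with its SE (black) and as the single difference between both exposed mice on each of the 4 shared slides (coloured symbols). All symbols of a gene lie on the same side of 0, from 1.504 to 4.71 for Lcn2 and from -1.53 to -1.01 for Ifi27l2a. This follows from the choice of 14 genes without overlap between run 1 and the later runs.

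The later runs differed little from each other by the same test. Between run 2 and run 3, 3 of 23842 probes passed (0.0126%), with 2049 at an unadjusted p under 0.05, and leaving out mouse 216 gave 32, mouse 197 gave 12 and mouse 194, 195 or 214 gave 1. Run 1 differed from run 2 alone in 410 higher and 1135 lower probes. From run 3 alone it differed in 157 higher and 234 lower ones. Whether run 1 differed more from run 2 than from run 3 was not tested. Mouse 193 was the only run 2 mouse on a slide with run 1, so slide differs between these contrasts as well. In the reference channel, which holds the same RNA on all arrays, 6 probes (0.0252%) differed between run 1 and the later runs, with 3694 at an unadjusted p under 0.05. Run, slide and array position overlap in this layout: the fits with slide or position as terms rest on 4 slides or on 2 later arrays in the third position. With membership of the 4 run 1 slides as an added term, 60 probes were higher and 77 lower, and restricted to those 4 slides 7 and 19. What distinguishes the 4 mice of run 1 apart from their sample numbers is not given in the sources used here.

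**Figure D5:**
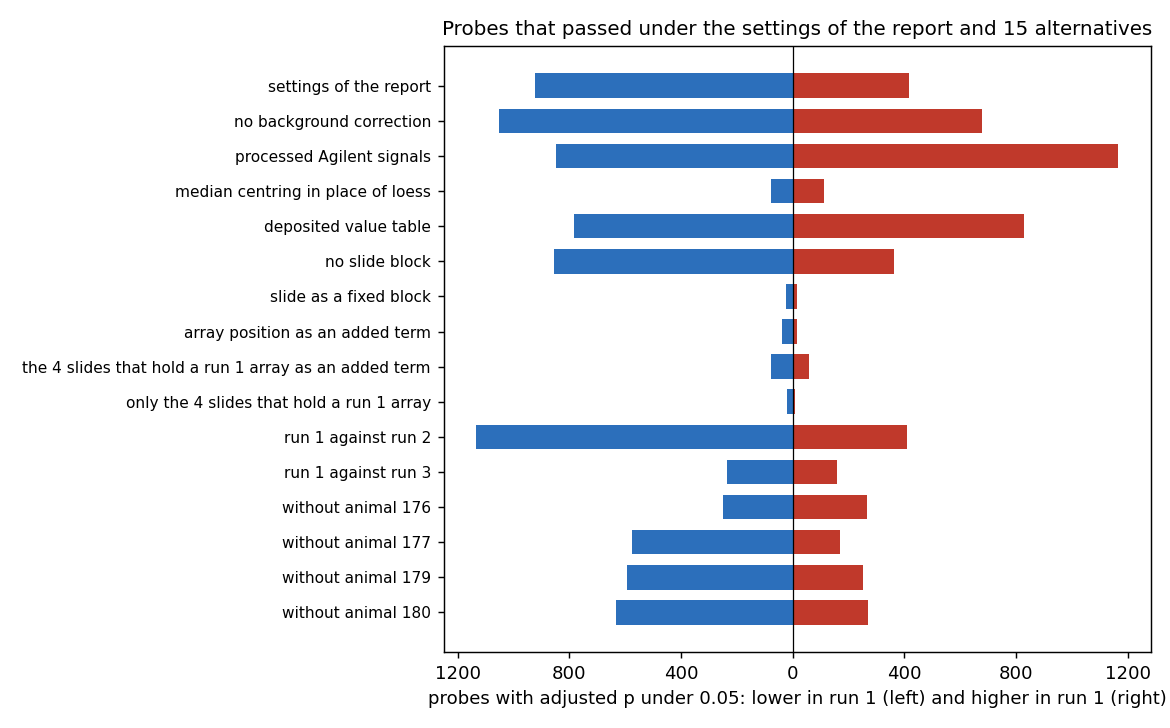
Number of probes past an adjusted p of 0.05, lower in run 1 to the left and higher to the right, under the settings of the report and 15 alternatives. The counts fall from 416 and 921 to 15 and 23 with slide as a fixed block and to 265 and 248 without mouse 176.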

How the data were processed

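Liver RNA of 14 exposed mice was compared on 2-colour Agilent arrays, 200 ng of RNA per sample, Cy5 for liver and Cy3 for the reference. The deposited scanner files hold spot intensity in both dyes, in arbitrary units, and a log10 ratio, which per the file headers came from Agilent Feature Extraction 10.7.3.1 (10.1.1.1 for 3 later exposed arrays). The deposited value table holds log2 ratios of Cy5 over Cy3: each of its 30 columns matched its own array best over 15470 bright spots (r 0.980 to 0.993, slopes 0.837 to 0.928). Its column medians lay between -0.045 and -0.021, and how its centring was done is not given in the sources used here.

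Median foreground signals went through normexp (offset 50) and within-array loess, control spots having weight 0, in limma 3.58.1 under R 4.3.3 (package data.table at version 1.17.8). Outlier spots became missing values, in 104 tested probes. Testing required clear Cy5 signal over background on 7 or more of the 14 arrays. Of 41174 probes 24375 have a symbol through RefSeq accessions, 6628 tested probes have none, and each gene is given by 1 probe, the brightest in mean Cy5 among those tested. Run 1 was compared with the later runs by limma with slide as a random block (correlation 0.15), two-sided, and p-values were adjusted by Benjamini-Hochberg across the whole set of tested probes. The fit was tested on simulated data. Named genes were the 12 with the largest difference each way, up to 4 members of each of 42 lists by smallest p, the smallest p of lists with no call, and the 5 widest gaps each way. Other list members are given for their role in the list. Members and lists were chosen with earlier results of these data known. Nothing in the labels says whether mice came from separate cages or litters, so p-values measure the spread between these arrays, whose number limits the precision. Alternatives were background, normalisation, filter, slide, position, array weights, channel, value table and leaving out arrays. Figures were drawn with matplotlib 3.10.9 and promoters searched with Python 3.11.15. Some list members are not reported here by name and remain in the counts and medians.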

Additional observations from a re-analysis of the deposited data

Results flagged for a closer look

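Among 299 groups of 4 or 5 values (95 named genes and 5 quality measures, by run), 12 held 1 value far from the others, which is near the 1 in 20 that chance gives. In run 1, mouse 176 was lowest for Fads2 at 2.6 (others 2.96 to 3.03), Tyms at -2.49 (others -2.17 to -2.12) and Sparc at -2.98 (others -2.35 to -2.23), and its log ratios had an interquartile range of 0.245 (others 0.458 to 0.46). Mouse 179 was lowest for Rgs16 at 0.33 (others 3.16 to 3.74) and mouse 177 highest for Gpd2 at -0.34 (others -0.54 to -0.53). In run 2, mouse 197 was lowest for Derl3 at -1.54 and highest for Nkd1, a target of Wnt signalling, at 2.17, and mouse 196 was highest for Tff3, a trefoil peptide, at 1.43. In run 3, mouse 216 was lowest for Bco1 at 1.64 and highest for the proteasome subunit Psmb5 at 0.24, and mouse 215 was highest for Nkd1 at 2.07. What sets these mice apart was not tested.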

How the results depend on the processing

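Higher and lower probes numbered 679 and 1050 without background correction, 1166 and 846 with the processed Agilent signals, 113 and 77 after median centring, 828 and 783 in the value table, 15 and 23 under a fixed slide block, 14 and 39 with array position, 157 and 234 against run 3, 253 and 449 without the older extraction software, and 7 and 19 on the 4 run 1 slides. Chosen after seeing the data, the term for those slides gave 60 and 77, Cy5 alone 789 and 616, the processed signals without mouse 176 gave 344 and 192, and the value table without mouse 176 gave 359 and 261. Leaving out 1 array gave 169 to 465 higher and 248 to 1016 lower probes. Run 2 against run 3 gave 0 probes with the fixed block, 12 in the value table and 1 to 32 leaving out 1 array, and the reference channel 0 with the fixed block and 4 to 8.

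Higher cholesterol genes, 9 of 20, numbered 14 with the processed signals and in the value table, 4 against run 3, 2 with the term for run 1 slides, 0 under the fixed block, with position and on the 4 slides, and 3 to 12 leaving out 1 array. Higher unfolded protein response genes, 9 of 36, numbered 15 and 14 with the processed signals and the value table, 4 and 5 against run 2 and run 3, 4 with all 30 arrays, 1 under the fixed block, position and the slide term, 0 on the 4 slides, and 2 to 10. Lower interferon genes, 23 of 52, numbered 4 after median centring, with position and with the slide term, 3 with the fixed block and on the 4 slides, 7 against run 3, 9 and 12 with the processed signals and the value table without mouse 176, and 11 to 24. Lower MHC genes, 8 of 13, numbered 1 with the processed signals, median centring and position, 0 with the fixed block, the slide term, the 4 slides and the processed signals without mouse 176, 2 in the value table without it, 3 against run 3, 5 with Cy5 alone, and 2 to 9. Higher drug metabolism genes, 6 of 66, numbered 13 without background correction, 14 in the value table, 23 with Cy5 alone, 2 with the fixed block and on the 4 slides, 3 with position and with the processed signals without mouse 176, and 4 to 9. Lower endothelial markers, 7 of 15, numbered 4 without background correction, in the value table, without a filter and with Cy5 alone, 1 with the processed signals, against run 3 and with both sets without mouse 176, 2 without the older software, 0 after median centring, with the fixed block, position, the slide term and the 4 slides, and 1 to 8.

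Of 95 named genes, 12 reversed under at least 1 alternative. With the processed signals Ttr stood at 0.81, Cxcl9 at 0.13, Cdh1 at 0.15, Aqp5 at -0.28 and Tspo2 at 0.14. Without mouse 176 these were 0.79, 0.47, 0.18, -0.195 and 0.055, with Slc2a5 at 0.21 and Bco1 at 0.19. After median centring Npc2 stood at 0.011, Uqcrc2 at 0.086, Uqcrb at 0.035, Cyc1 at 0.042 and Psmb5 at 0.15. With Cy5 alone Aqp5 stood at -0.21 and Psmb5 at 0.00. The cause was not tested, apart from smaller sample numbers where arrays or slides were left out. The runs share no replicate numbers, so arrays could be paired by slide alone, as in the fixed slide block and the fit on the 4 run 1 slides.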
